A study of Caenorhabditis elegans with 2 samples.

Results

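The genes described here encode the subunits of the proteasome in Caenorhabditis elegans. They were taken as every protein-coding gene whose symbol begins with pas, pbs, rpn or rpt followed by a number, which gave 33 of the 19973 protein-coding genes on the 6 nuclear chromosomes. The symbols divided into 14 genes of the core particle, 7 pas genes and 7 pbs genes, and 19 genes of the regulatory particle. Of these 19, 9 belonged to the lid and 10 to the base, among them the 6 rpt genes.

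The proteasome is the large protease that degrades proteins marked with ubiquitin. Its core particle is a barrel of stacked rings, in which the outer alpha rings (pas genes) gate the entrance and the inner beta rings (pbs genes) carry the cutting sites. The regulatory particle caps the barrel: its lid removes ubiquitin chains, and its base, built around a ring of ATPases (rpt genes), binds, unfolds and threads the substrate. Cells need the subunits in balanced amounts, and in C. elegans the transcription factor SKN-1 is known to raise the expression of proteasome genes when proteasome function falls.

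PBRM-1 is the polybromo subunit of PBAF, a form of the SWI/SNF chromatin remodelling complex. Its binding was mapped by ChIP-seq, the sequencing of DNA that comes down with a tagged protein, in 1 group of whole young adult worms of strain RW12226, aged 64.5 h and synchronised by starving L1 larvae after bleaching. The strain carries st12226[pbrm-1::TY1::EGFP::3xFLAG] I, a tag inserted by CRISPR at the gene's own locus. The antibody was raised against GFP according to the sample descriptions, and the 2 libraries are given as separate biological replicates. Both replicates carry the same edited allele, no group differs in genotype or treatment, and a peak in whole worms cannot be assigned to a tissue.

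A peak summit, the position of strongest signal within a peak, was assigned to a gene when it lay no more than 1000 bp upstream and 200 bp downstream of an annotated transcript start (5' end). The authors' thresholded list for both replicates together is named the series list and had 3243 peaks, while the replicate 1 list had 1370 and the replicate 2 list 2173. A smaller conservative list of both replicates held 2917. The signal, the score and the q of a peak were all set by the authors, and they are compared only within 1 list. The score is a scaled measure of reproducibility that reaches 1000, and the lowest score in each of these 4 lists was 830. Of the series peaks, 760 (23.4%) nevertheless had a q above 0.05, so the list is not a list of peaks past a q threshold. The lists do not give the read depth. Positions follow ce11 (WBcel235), with the first base as 1.

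The sequences below show the strongest summits of 4 proteasome genes found in both replicates, with 1 gene that had no candidate summit in any list for contrast. Each is 101 bases from the RefSeq copy of WBcel235, written 5' to 3' on the strand of the gene, and none overlaps an exon. The summit window of rpn-11, also found in both replicates, overlaps an exon and is not printed. Capitals mark matches, on either strand, to 6 searched motifs, which are described with the promoters further on. The core gene pbs-1 is at chrIV:1709888-1709988 on the minus strand. The base gene rpt-6 is at chrIII:12369649-12369749 on the plus strand. The lid genes are rpn-3 at chrIII:8447120-8447220 on the plus strand and rpn-9 at chrII:11239108-11239208 on the minus strand. The gene without a candidate is pas-2 at chrV:10770243-10770343 on the plus strand, centred 75 bp upstream of its 5' end.
pbs-1: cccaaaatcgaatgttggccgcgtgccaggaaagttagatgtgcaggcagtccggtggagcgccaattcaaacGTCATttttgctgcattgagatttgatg
rpt-6: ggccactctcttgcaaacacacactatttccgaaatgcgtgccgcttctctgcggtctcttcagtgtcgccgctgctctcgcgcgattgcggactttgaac
rpn-3: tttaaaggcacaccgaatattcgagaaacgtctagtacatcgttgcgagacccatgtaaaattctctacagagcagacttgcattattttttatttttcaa
rpn-9: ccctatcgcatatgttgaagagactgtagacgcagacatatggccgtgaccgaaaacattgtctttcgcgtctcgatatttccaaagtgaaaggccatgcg
pas-2: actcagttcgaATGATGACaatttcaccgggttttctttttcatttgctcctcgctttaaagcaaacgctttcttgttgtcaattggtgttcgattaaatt
The summit sequences differed in base composition. GC content was 49.5% at pbs-1, 56.4% at rpt-6, 35.6% at rpn-3 and 47.5% at rpn-9, and it was 36.6% in the pas-2 sequence. The strongest of the 4 sites, rpn-3, was thus the one lowest in GC.

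In the series list, 10 of the 33 proteasome genes (30.3%) had a summit in the promoter window, against 9.87% of all protein-coding genes. They were pas-1, pbs-1 and pbs-3 of the core particle, rpn-3, rpn-5, rpn-6.2, rpn-9 and rpn-11 of the lid, and rpt-6 and rpn-2 of the base. The conservative list held 6 of them (18.2%, against 8.99% of all genes), which were pbs-1, rpn-3, rpn-9, rpn-11, rpt-6 and rpn-2. In the replicate lists the share of proteasome genes was likewise above that of all genes. Replicate 1 had 7 (21.2%, against 4.63%) and replicate 2 had 6 (18.2%, against 7.63%). A summit in both replicate lists was found at 5 genes (15.2%, against 4.14%), namely pbs-1 of the core, rpt-6 of the base and rpn-3, rpn-9 and rpn-11 of the lid. Counts of genes in 1 list are a description of these 2 libraries, and no test was made on them.

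Most subunits, including most catalytic and ATPase subunits, were without a summit in the thresholded lists. Counting the series list and both replicate lists, 11 of the 33 genes had one. The share of all genes over these lists together was not counted. The core particle was represented by 3 of 14 genes in the series list (21.4%) and the regulatory particle by 7 of 19 (36.8%), against 9.87% of all genes. Within the regulatory particle, the lid had 5 of 9 genes (55.6%) and the base 2 of 10. The lid was also the class with the largest share in replicate 1, with 5 of 9, and in replicate 2, with 3 of 9 (33.3%). The core particle had 1 of 14 in replicate 1 and 2 of 14 in replicate 2, while the base had 1 of 10 in each.

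**Figure D1:**
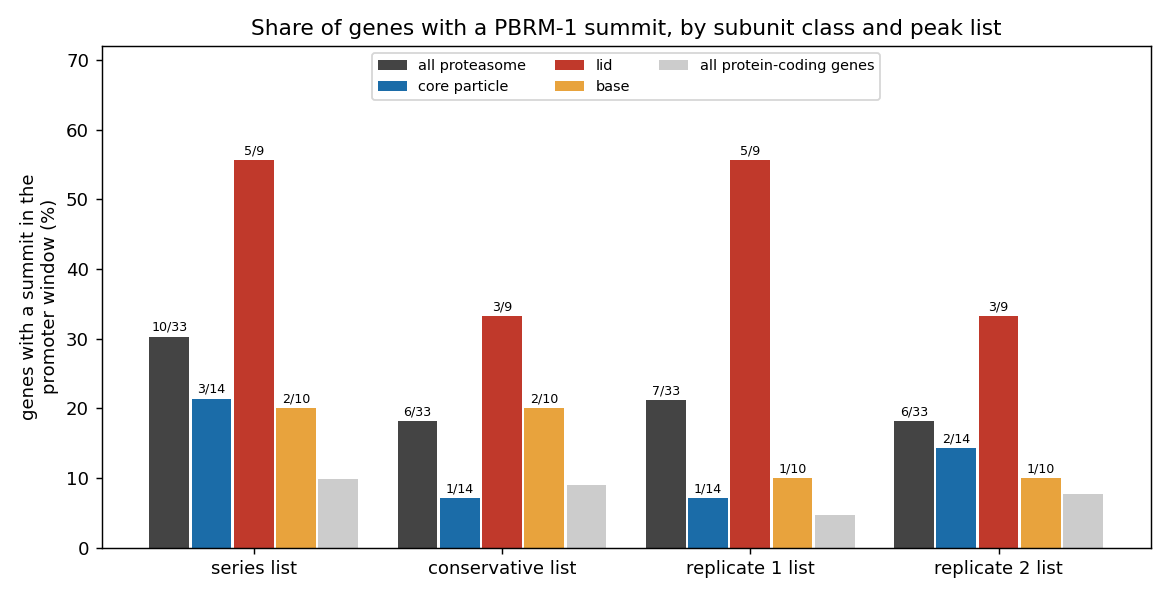
Share of genes with a PBRM-1 summit in the promoter window (vertical axis, %) in each of 4 thresholded peak lists, for all proteasome genes, the core particle, the lid, the base and all protein-coding genes; the fractions over the bars are numbers of genes. The lid bar is the tallest in each list, at 5 of 9 genes in the series list, against 9.87% of all protein-coding genes.

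In the series list, the difference between core and regulatory genes went together with chromosome. Of the 10 proteasome genes on chromosome I, 7 encode core subunits and 3 regulatory subunits, and 0 of the 10 had a summit in the series list, against 14.5% of all genes on that chromosome. On the other chromosomes 10 of 23 proteasome genes had one (43.5%), against 9.10% of all genes there. There the shares of the classes were close in the series list, with 3 of 7 core genes (42.9%) and 7 of 16 regulatory genes (43.8%). They were also close in replicate 2, with 2 of 7 core genes (28.6%) and 4 of 16 regulatory genes (25.0%). In replicate 1 and in the conservative list they were further apart, with 1 of 7 core genes (14.3%) and 5 of 16 regulatory genes (31.2%) in each. A summit in both replicate lists was found at 1 of 7 core genes and 4 of 16 regulatory genes. The share of all genes off chromosome I was counted for the series list only. The chromosome split was made after the counts had been seen, and its part in the difference between the classes was not tested. Chromosome I also carries the tagged gene. The chromosome I genes were pas-3, pas-4, pas-5, pbs-2, pbs-4, pbs-5, pbs-7, rpn-8, rpn-10 and rpt-5.

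Among the alpha ring genes, pas-1 was the 1 gene of 7 with a summit, and it had none in either replicate list. Its series peak at chrV:14422304-14422623 had a signal of 72.2, with the summit 154 bp downstream of the 5' end in its own coding sequence. A second peak, chrV:14422503-14422822, had a signal of 11.7 and its summit lay 45 bp upstream of the 5' end. The q values were 0.0458 for the stronger peak and 0.905 for the weaker one, which passed on its score of 906. The other 6 alpha ring genes, pas-2 to pas-7, had no summit in any thresholded list.

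The beta ring had 2 of 7 genes in the series list, and 1 of these recurred in both replicates. It was pbs-1, whose human counterpart carries the caspase-like cutting site. The signal at pbs-1 was 48.8 in replicate 1 (rank 1117 of 1370 by signal) and 64.5 in replicate 2 (rank 1238 of 2173), and the summits lay 26 bp apart. In the series list the peak at chrIV:1709778-1710097 had a signal of 122 and a q of 0.00616. The site is in the lower part of replicate 1 and near the middle of replicate 2 by signal. Its summit was intergenic, 193 bp upstream of pbs-1, and 327 bp upstream of the divergent gene K08D12.3, so that both windows held it.

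The structural beta subunit gene pbs-3 had a summit in replicate 2 and not in replicate 1. In replicate 2 its signal was 64.0 with a score of 924. The strongest candidate in replicate 1 had a signal of 22.3 and a score of 52, far below the threshold of 830. The series peak at chrII:4955399-4955718 had a signal of 84.3 and a q of 0.0138. Its summit lay 132 bp upstream of pbs-3, in the annotated 3' UTR of the neighbouring gene ulp-2, and in no other gene's promoter window. The genes of the other cutting subunits, pbs-2 and pbs-5, were in no thresholded list.

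The lid held the strongest site of all proteasome genes, at rpn-3, a structural subunit of the lid. The signal at rpn-3 was 109 in replicate 1 (rank 224 of 1370) and 154 in replicate 2 (rank 228 of 2173), with summits 4 bp apart. In the series list the peak at chrIII:8447071-8447230 had a signal of 264 and a q of 0.000791, and ranked 216 of 3243. No other proteasome gene reached a signal of 100 in replicate 1. The summit was intergenic, 183 bp upstream of rpn-3 and 261 bp upstream of the divergent gene hsp-110, which encodes a chaperone of the Hsp110 family. It also lay 75 bp upstream of the noncoding RNA gene C30C11.14, so the site cannot be assigned to 1 gene. A weaker series peak, signal 63.1 and q 0.132, had its summit in the coding sequence of hsp-110, 684 bp upstream of rpn-3, and was in neither replicate list.

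The lid genes rpn-9 and rpn-11 also had a summit in both replicates. At rpn-9, another structural lid subunit, the signal was 61.9 in replicate 1 and 89.6 in replicate 2, with summits 4 bp apart. The rpn-9 series peak at chrII:11238998-11239317 had a signal of 157 and ranked 614, second among proteasome genes. Its summit was intergenic, 239 bp upstream of rpn-9 and 439 bp upstream of the divergent gene T06D8.9. At rpn-11, the deubiquitinase that cuts ubiquitin chains from substrates, the signal was 47.7 in replicate 1 and 94.3 in replicate 2, with summits 5 bp apart. Replicate 1 gave rpn-11 a score of 853, just over the threshold, and replicate 2 a score of 1000. The rpn-11 series peak at chrII:4044403-4044722 had a signal of 135, and its intergenic summit lay 17 bp upstream of the 5' end and in no other window. Among the 5 genes found in both replicates, rpn-11 was the only one whose strongest series summit lay in the window of no other gene.

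The lid genes rpn-5, rpn-6.2 and rpn-8 had summits that did not recur in both replicates. The structural lid gene rpn-5 had 2 series peaks and none in a replicate list. Its peaks at chrII:4698310-4698629 and chrII:4698525-4698844 had signals of 63.4 and 10.1 and q values of 0.13 and 0.91. Their summits lay 43 and 258 bp upstream of rpn-5, in the space it shares with the divergent cohesin gene scc-1. At rpn-6.2, a paralogue of rpn-6.1, replicate 1 had a summit of signal 52.0 and score 995. In replicate 2 the strongest rpn-6.2 candidate had a signal of 30.3 and a score of 262. That candidate was at another position, 405 bp upstream of the first 5' end. The rpn-6.2 series peak at chrIII:9001526-9001845, signal 67.7 and q 0.0751, had its summit in an intron, 313 bp downstream of the first 5' end. It counted because it lay 805 bp upstream of a second, internal 5' end. The gene rpn-8, which encodes the partner of RPN-11 in the lid, was found in replicate 1 only. Its signal there was 52.6 with a score of 890, 244 bp upstream of the 5' end and 301 bp upstream of mrps-6, a mitochondrial ribosomal protein gene. In the series ranking rpn-8 had a score of 799 and so fell just outside the threshold, and in replicate 2 it had a score of 126. Of the lid genes, rpn-6.1, rpn-7 and rpn-12 had no summit in any thresholded list.

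In the base, rpt-6 was the 1 ATPase gene of 6 with a summit, and it was found in both replicates. The signal at rpt-6 was 59.4 in replicate 1 (rank 812) and 71.6 in replicate 2 (rank 1033), with summits 38 bp apart. The series peak at chrIII:12369539-12369858 had a signal of 130 and a q of 0.00694. Its intergenic summit was far from rpt-6, 757 bp upstream, and nearer to the divergent gene his-72, which encodes an H3.3 histone, at 649 bp upstream. A second series peak, chrIII:12370062-12370381, lay 234 bp upstream of rpt-6 alone, with a signal of 82.7 and a q of 0.0157, and overlapped no peak of either replicate list. The scaffold gene rpn-2 had a series peak at chrIII:6198650-6198969 of signal 89.1 and q 0.0107. Its summit lay 374 bp upstream of rpn-2 and 396 bp upstream of the divergent gene C23G10.7. In the replicates rpn-2 had candidates of signal 39.7 in replicate 1 and 41.9 in replicate 2, with scores of 417 and 54, so neither passed. The ubiquitin receptor genes rpn-1, rpn-10 and rpn-13 had none in any thresholded list.

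The summits at proteasome genes lay mostly upstream and outside genes. Of 14 series summits at the 10 genes, 13 were upstream of the nearest 5' end whose window held them, and 10 were outside any annotated gene. The window itself reaches 1000 bp upstream and only 200 bp downstream, so most summits in it are expected to lie upstream. The matching shares over all genes with a series summit were not counted, so neither count is a trait particular to proteasome genes. The strongest summit of each gene had a median offset of -188 bp, with a range of -805 to 154 bp, against a median of -256 bp over the 1971 genes with a series summit. Its signal ran from 63.4 to 264 with a median of 106 in proteasome genes, against a median of 107 over those 1971 genes. The proteasome sites were thus close to the middle of the list's genes in signal. Some summits were in shared promoters. Of the 10 genes, 6 shared a summit with another protein-coding gene, in each case a divergent neighbour. For 4 genes each summit was shared. The matching share over all genes with a series summit was not counted, so these counts describe the proteasome genes only. A divergent upstream neighbour was present at 6 of the 10 genes with a series summit and at 17 of the 23 without one. Its share over all genes was not counted either. The gap to the upstream neighbour had a median of 368 bp in the 10 genes and 415 bp in the 23.

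**Figure D2:**
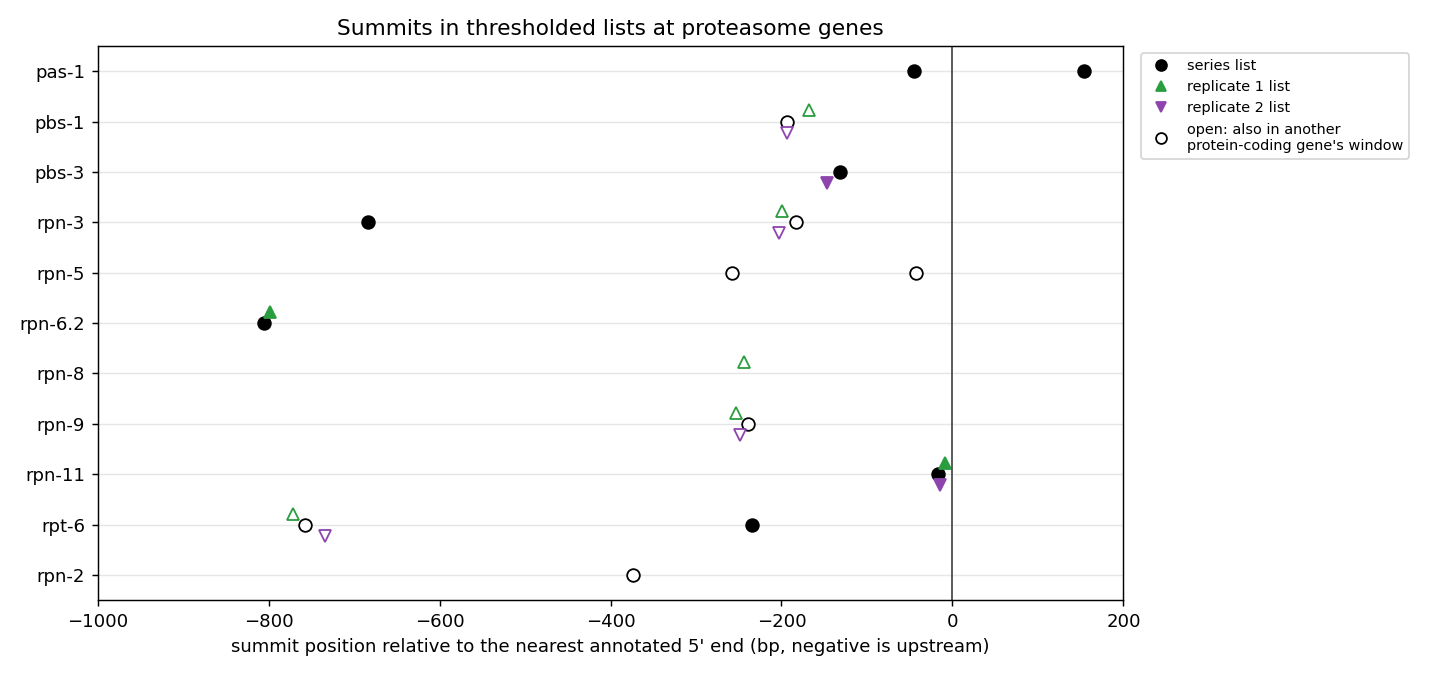
Positions of thresholded summits at the 11 proteasome genes with one, relative to the nearest annotated 5' end whose window holds the summit. The horizontal axis is in bp, and negative is upstream. Circles mark the series list, upward triangles the replicate 1 list and downward triangles the replicate 2 list. Open symbols mark summits that also lie in another protein-coding gene's window. The rpn-6.2 series summit, drawn at -805 bp, lies 313 bp downstream of that gene's first 5' end. The replicate summits of rpn-3, rpn-9 and rpn-11 lie within 5 bp of each other, and rpt-6 has its recurrent summit at -757 bp.

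Almost every proteasome gene had a candidate peak in its window, when candidates that passed the thresholds and those that did not were counted together. The ranked lists hold all candidates and are mostly of high q: 97.0% of the 89851 series candidates had a q above 0.05. In the series ranking 32 of the 33 genes (97.0%) had a candidate summit in the window, against 66.0% of all genes. Replicate 1 had 30 (90.9%, against 52.9%) and replicate 2 had 32 (97.0%, against 49.4%). The alpha ring gene pas-2 was the 1 gene with no candidate in any ranking, and the beta ring genes pbs-4 and pbs-6 had none in replicate 1. Where candidates were limited to a q of 0.05 or less, replicate 1 had 8 proteasome genes (24.2%, against 6.91% of all genes) and replicate 2 had 12 (36.4%, against 10.8%).

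The replicates differed in which genes had a candidate of low q but a score under the threshold. In replicate 2 these were pas-1, pas-4, pbs-5, rpt-2, rpn-2 and rpn-5, with q values from 0.0119 at rpn-5 to 0.0445 at pas-1. In replicate 1 it was rpn-2. With every candidate of low q counted, including those that passed the threshold, the core particle had 1 of 14 genes in replicate 1. In replicate 2 the core particle had 5 of 14 (35.7%). The regulatory particle had 7 of 19 (36.8%) in each replicate by the same count.

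The strongest candidate of each gene was of higher signal in proteasome genes than in the typical gene. With genes lacking a candidate counted as 0, its median signal in the series ranking was 51.8 in proteasome genes and 21.9 over all genes. The medians were 22.5 in proteasome genes and 9.54 over all genes in replicate 1, and 31.5 in proteasome genes and 0 over all genes in replicate 2. In the series ranking 30 of the 33 genes were above the median of all genes, and in replicate 1 it was 29. A signal of 40 or more was reached by 25 proteasome genes (75.8%), against 24.0% of all genes. The bin from 40 to under 60 held the most proteasome genes, 39.4% of them, against 12.4% of all genes. That bin lies below 63.4, the lowest strongest signal of a proteasome gene in the series list.

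**Figure D3:**
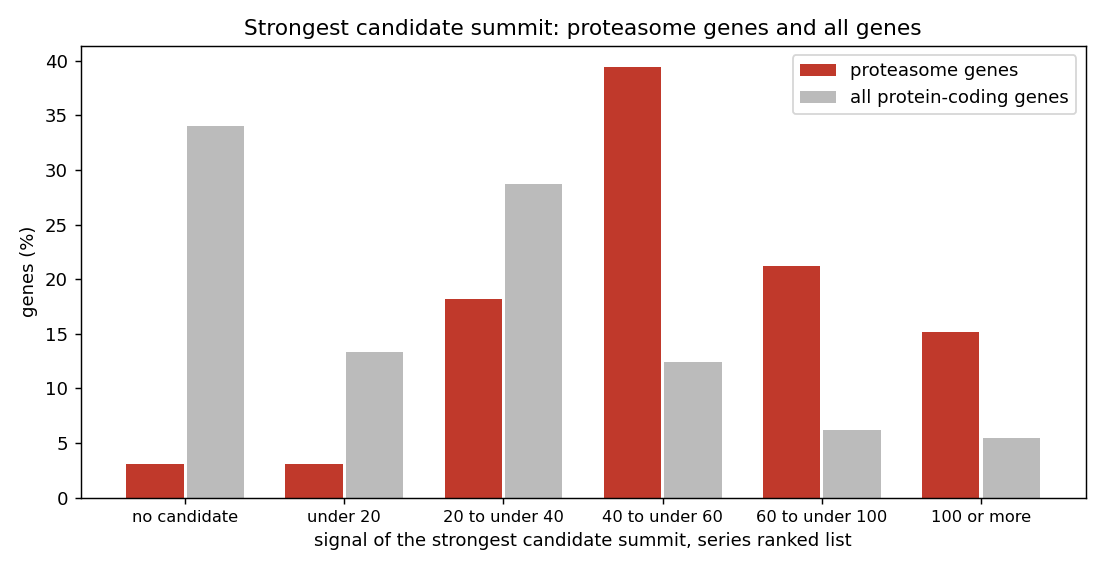
Share of genes (vertical axis, %) by the signal of their strongest candidate summit in the series ranking (horizontal axis, the authors' signal in bins), for the 33 proteasome genes and all 19973 protein-coding genes. The bin from 40 to under 60 holds 39.4% of the proteasome genes and 12.4% of all genes, and 3.03% of the proteasome genes had no candidate, against 34.0% of all genes.

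The order of the classes was the same in both replicates for core and regulatory genes. The median signal was 45.7 for the core particle and 59.9 for the regulatory particle in the series ranking. In replicate 1 it was 18.6 for core and 27.1 for regulatory genes, and in replicate 2 it was 29.0 for core and 36.4 for regulatory genes. The lid had the highest median in each ranking: 63.4 in the series, 47.7 in replicate 1 and 36.4 in replicate 2. The base had a median of 49.4 in the series, 20.1 in replicate 1 and 32.6 in replicate 2. The ranges overlapped widely, since the core genes ran to 122 in the series ranking and the base genes from 19.6 to 130.

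**Figure D4:**
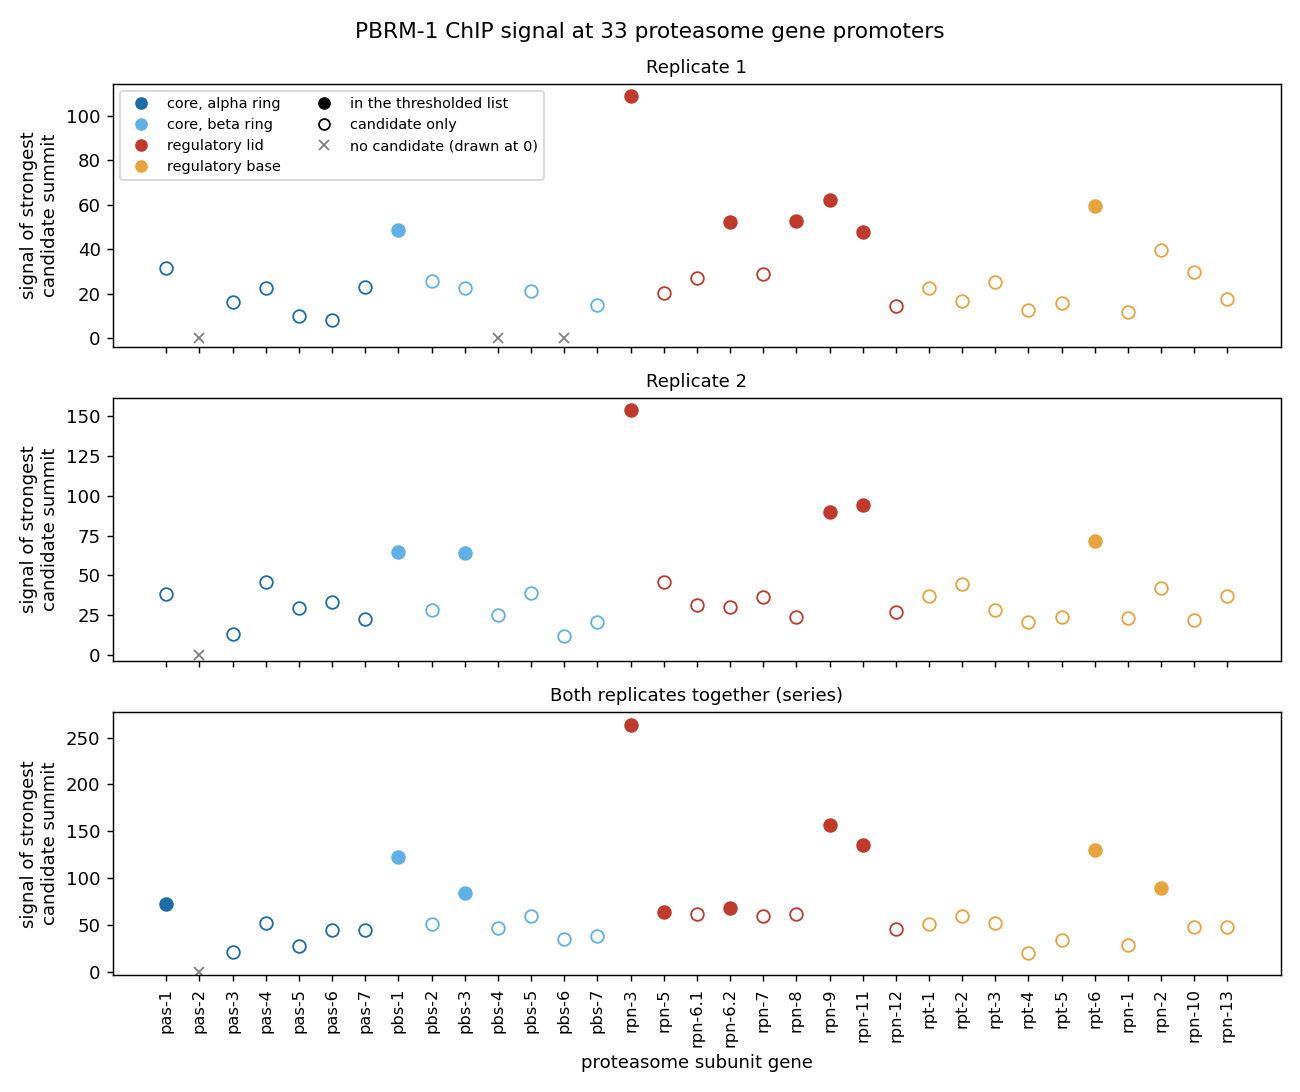
Signal of the strongest candidate summit in the promoter window (vertical axis, the authors' signal, 1 panel for each replicate and 1 for both together) for each of the 33 proteasome genes (horizontal axis), coloured by class; filled circles are genes with a summit in the thresholded list of that panel, open circles have a candidate only, and crosses mark genes with none. The rpn-3 point is the highest in each panel, at 109 in replicate 1, 154 in replicate 2 and 264 together.

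The 23 proteasome genes without a series summit still had candidates of middling signal. Of these, 22 had a candidate, with signals from 19.6 to 61.4. Among the 18002 genes without a series summit, 11205 had a candidate. With genes lacking a candidate included and placed lowest, the median signal was 47.0 over the 23 and 18.5 over the 18002. The gap between these medians thus also includes the difference in how many genes had a candidate. Medians over only the genes with a candidate were not compared. Among genes with no summit in a thresholded list, the strongest was rpn-6.1, a lid scaffold subunit, with 61.4 in the series ranking, 27.1 in replicate 1 and 31.5 in replicate 2. Its series candidate lay 424 bp upstream of an internal 5' end and 637 bp downstream of the first. The lid gene rpn-7 followed with 59.9 in the series ranking, 29.0 in replicate 1 and 36.4 in replicate 2. The ATPase gene rpt-2 had 59.6, with 16.8 in replicate 1 and 44.6 in replicate 2. Each of these signals was far below that of rpn-3 in the same list. The gene pbs-5, whose human counterpart carries the chymotrypsin-like cutting site, had 59.1, with 21.2 in replicate 1 and 39.1 in replicate 2. Its replicate 2 candidate lay 54 bp downstream of the 5' end, while the series candidate lay 667 bp upstream. The ATPase gene rpt-3 had 52.1, with 25.0 in replicate 1 and 28.4 in replicate 2. All other genes with a candidate and no thresholded summit had series signals from 19.6 at rpt-4 to 51.8 at pas-4. By score, the genes just outside the series threshold were rpn-8 at 799, rpn-6.1 at 746, rpn-10 at 710 and rpn-7 at 685. Just inside it was pas-1 at 905.

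The nearest series summit to a 5' end lay 1052 to 47490 bp away over these 23 genes, with a median of 1914 bp, against a median of 16303 bp over the 18002 genes without a series summit. It lay within 2000 bp, upstream or downstream, for 13 of the 23 (56.5%), against 6.54% of the 18002. It was more than 10000 bp away for 7. None of the 23 had a series summit within its gene body. The shares of the 18002 genes with a summit more than 10000 bp away or in the gene body were not counted. Near the alpha ring gene pas-5 a peak of signal 471 lay 1126 bp upstream of the 5' end, just past the window, and near pbs-2 a peak of signal 258 lay 1347 bp downstream of the 5' end.

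Other genes of the ubiquitin and proteasome pathway were drawn from a list of 28 symbols, of which 27 were matched. Of these, 10 (37.0%) had a summit in the series list, against 9.87% of all genes. Replicate 1 had 6 (22.2%, against 4.63%) and replicate 2 had 10 (37.0%, against 7.63%). The strongest was cdc-48.1, which encodes a p97 ATPase that extracts ubiquitinated proteins, with a series signal of 835, rank 13 of 3243, and a summit in both replicates. That signal was above that of rpn-3, the strongest proteasome site. Both ubiquitin genes had a summit in both replicates, ubq-1 with a series signal of 128 and ubq-2 with 153. The ubiquitin-activating enzyme gene uba-1 had 111, in replicate 2 only of the replicates. The ubiquilin shuttle gene ubql-1 had 166, the deubiquitinase gene usp-14 had 109 and aip-1, which encodes an arsenite-inducible proteasome-associated protein, had 127, each in both replicates. The deubiquitinase gene ubh-4 had 106, ufd-3, which encodes a CDC-48 cofactor, had 98.6, and wdr-23, which encodes a negative regulator of SKN-1, had 148, each in replicate 2 and not in replicate 1. Some of these summits were also in a neighbour's window, with ubq-2 paired to frg-1, ubql-1 to pdi-3, usp-14 to vnut-1, aip-1 to ddx-17 and ubh-4 to algn-6. The other 17 genes, among them cdc-48.2, skn-1 and the shuttle and cofactor genes rad-23, ddi-1, ufd-1 and ufd-2, had none in the series list.

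The 6 motifs were searched on both strands in the 300 bp promoters, from 250 bp before to 50 bp after the most upstream 5' end. The SKN-1 core, ATCAT or GTCAT, was present in 28 of the 33 proteasome promoters (84.8%), against 72.1% of all promoters. It was in 9 of the 10 promoters of genes with a series summit and in 19 of the 23 without one. The yeast Rpn4 element, GGTGGCAAA, and the motif CTGCGTCTC were in 0 of the 33, against 0.225% and 2.93% of all promoters. GAGAGA was in 6 of the 33 (18.2%, against 21.8%), and GATAAG in 2 (6.06%, against 16.7%), those of rpn-6.1 and rpn-13. TTTCAG was in 23 of the 33 (69.7%, against 51.7%), with 13 of 14 core promoters (92.9%) and 10 of 19 regulatory promoters (52.6%). It was as frequent in genes with a series summit, 7 of 10, as in those without, 16 of 23. Median GC content was 34.3% in proteasome promoters and 34.3% in all promoters. Of the printed sequences, pbs-1 held 1 match to the SKN-1 core and pas-2 held 2 that overlap, while rpt-6, rpn-3 and rpn-9 held none within 50 bp of the summit. The rpn-11 window, which is not printed, held 2 matches to the SKN-1 core and had a GC content of 51.5%. A match to letters this short is not a binding site, and its absence says only that these letters are not in the window.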

How the data were processed

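Chromatin immunoprecipitation libraries of PBRM-1 from 2 biological replicates of whole young adult worms were described from the peak lists the authors deposited on ce11, per the labels. The labels name a control experiment, which was not used here. The aligner and the peak caller, with versions, are not given in the labels or files used here, and neither is the scaling of the signal value that the authors deposited for each peak. The score deposited by the authors is, per the values, a scaled irreproducible discovery rate. The q value was deposited by the authors as −log10 and was turned back into q here. Per the labels, the 2 replicates are separate biological samples. One antibody label reads pbrm-1, while the descriptions name an antibody against GFP.

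Summits were taken as peak start plus summit offset and set against gene models of Ensembl release 115, whose assembly WBcel235 is ce11, on 6 chromosomes. Window ends were included, and 1 summit could count for several genes. Counts were made with Python 3.11.15 and NumPy 2.4.6 and drawn with matplotlib 3.10.9, after the counting was tested on simulated summits. No statistical test was made: there is 1 group, and genes are not replicates. The members and lists were chosen with earlier results of these data known. Named were every gene with a thresholded summit, the 5 strongest without one, neighbours that share a summit, and pathway genes in the series list. Others were named where a count of 5 or fewer, a chromosome or a score near the threshold called for it. The subunits rpn-10 and rpn-13 were counted in the base. Alternatives were other lists, thresholds, windows and assignment rules. A second series-level ranked list was not used.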

Additional observations from a re-analysis of the deposited data

How the results depend on the processing

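The count of proteasome genes with a series summit, 10 in all with 3 core and 7 regulatory genes, depended on list and window. The conservative list gave 6, with 1 core and 5 regulatory genes, against 8.99% of all genes. With the list of a single replicate in place of both, the count ran from 6 to 7, core genes from 1 to 2 and regulatory genes from 4 to 6. The share of all genes was 4.63% in replicate 1 and 7.63% in replicate 2. Peaks at or above the median signal of the list gave 5, with 1 core and 4 regulatory genes, against 6.01% of all genes. A window reaching 2000 bp upstream gave 16, with 6 core and 10 regulatory genes, against 12.9% of all genes. The 6 genes it added were pas-5, pbs-2, pbs-5, rpn-8, rpn-10 and rpn-12, of which 5 are on chromosome I. Summits in the window of no other protein-coding gene, a choice made after seeing the data, gave 6, with 4 regulatory genes. The share of all genes was not counted for this choice. Why these counts moved was not tested beyond the smaller or larger lists and windows themselves. Counts stayed within 1.5 times under several other settings. A q of 0.05 or less gave 8 genes (against 8.52% of all genes). A 500 bp upstream to 100 bp downstream window gave 9 (against 7.57%), and the most upstream 5' end 9 (against 9.14%). Peak midpoints gave 10 (against 9.87%) and the nearest gene 10 (against 7.50%). Signals of 20 or more, chosen after seeing the data, gave 10 (against 9.85%). Asking for 50% overlap left 5 genes in both replicates. The lid count of 5 dropped to 3 in the conservative list, replicate 2, the upper signals, q of 0.05 or less and unshared summits. Placing rpn-10 in the lid left the lid at 5 and the base at 2. Of 29 recomputed gene signals 26 were the same. With the 500 bp window pas-1 had 11.7 and rpt-6 had 82.7, and with the 2000 bp window pbs-1 had 167. No paired analysis was possible because there is 1 group. The lists do not give read depth, so a gene without a peak was not detected at this depth, which does not show absence of PBRM-1.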
